A study of Mus musculus with 16 samples.

Results

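The genes described here are 35 named members of the p53 pathway: p53 itself (Trp53), its regulators and partners, and genes that p53 is known to switch on. They were chosen by name, with older synonyms accepted, by a rule that uses no measured value, although earlier results of these data were known when the list was drawn up. The arrays carried a named feature for 32 of the 35, and all 32 passed the filter on low signal, out of 20166 genes tested in all. Trp53, Bax and Fdxr have no feature in the annotation used and were not analysed here, so nothing is said of the level of p53 itself. The 32 genes were read from 42 features, and 9 of them had several.

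RNA of whole lung homogenate, from mouse pups at postnatal day 3, was measured on 16 one-colour Agilent oligonucleotide arrays, 4 in each of 4 groups. The groups were Fgf10+/- pups in 85% oxygen from day 0 to day 3, Fgf10+/- pups in normoxia, wild-type pups in the same 85% oxygen, and wild-type pups in normoxia. Fgf10+/- pups carry 1 inactivated copy of fibroblast growth factor 10, a mesenchymal growth factor of the developing lung. The sources used here give no strain, litter or batch and do not say whether each array is a separate animal, so the p-values measure the spread between these samples, which may be partly technical.

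All values are log2 intensities as the authors deposited them, and differences are in log2 units unless a fold is given. Levels of different genes were not set against each other. Replicates of a group correlated with r between 0.974 and 0.983. The 10 genes that define lung epithelium averaged between 12.71 and 13.35 in the 16 arrays, against array medians of 4.50. Wild-type normoxia replicate 4 stood apart: its 10 skeletal muscle genes averaged 8.57, against 4.77 to 5.18 in the other arrays of that group, and its 7 brown fat genes 6.88 against 5.72 to 5.87. Results that rest on that array are given with and without it. The mean of the 10 Fgf10 features was 7.28 ± 0.22 in Fgf10+/- hyperoxia, 7.89 ± 0.21 in Fgf10+/- normoxia, 7.49 ± 0.18 in wild-type hyperoxia and 7.59 ± 0.20 in wild-type normoxia (SD, n = 4 each). The signal was thus not lower in pups labelled Fgf10+/- in normoxia, and where these features lie relative to the inactivated part of the gene is not stated, so they do not check the genotype labels.

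p53 is a transcription factor that is kept scarce by the ubiquitin ligase Mdm2 and accumulates when DNA is damaged or the cell is otherwise stressed. It then switches on genes that halt the cell cycle, repair DNA, adjust metabolism or start apoptosis, and it also switches on Mdm2, which closes a feedback loop. High oxygen generates reactive oxygen species that damage DNA, and the induction of the cell cycle inhibitor Cdkn1a, the best known p53 target, is an established response of the rodent lung to it.

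After 3 days of 85% oxygen, 17 of the 32 genes were higher and 1 was lower in Fgf10+/- lungs than in Fgf10+/- normoxia, and 14 did not pass the test (limma, Benjamini-Hochberg adjusted p under 0.05 over 20166 genes). Among all genes tested, 13% were higher and 10.7% lower in that comparison. In wild-type lungs 13 of the 32 were higher and 0 lower than in normoxia, and 19 did not pass, where 10.3% of all genes were higher and 8.75% lower. The 13 genes higher in wild type were all among the 17 higher in Fgf10+/-: Mdm2, Ccng1, Bbc3, Aen, Perp, Phlda3, Fas, Sesn2, Dcxr, Gdf15, Polk, Zmat3 and Rps27l. The median log2 difference of the 32 was 0.56 in Fgf10+/- lungs and 0.32 in wild-type lungs, against 0.03 for all genes in both. The groups did not overlap for 18 of the 32 genes in Fgf10+/- lungs, where this held for 24.9% of all genes, and for 13 in wild-type lungs, where it held for 24.8%. In homogenate, fewer cells of a type and less RNA per cell cannot be told apart.

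**Figure D1:**
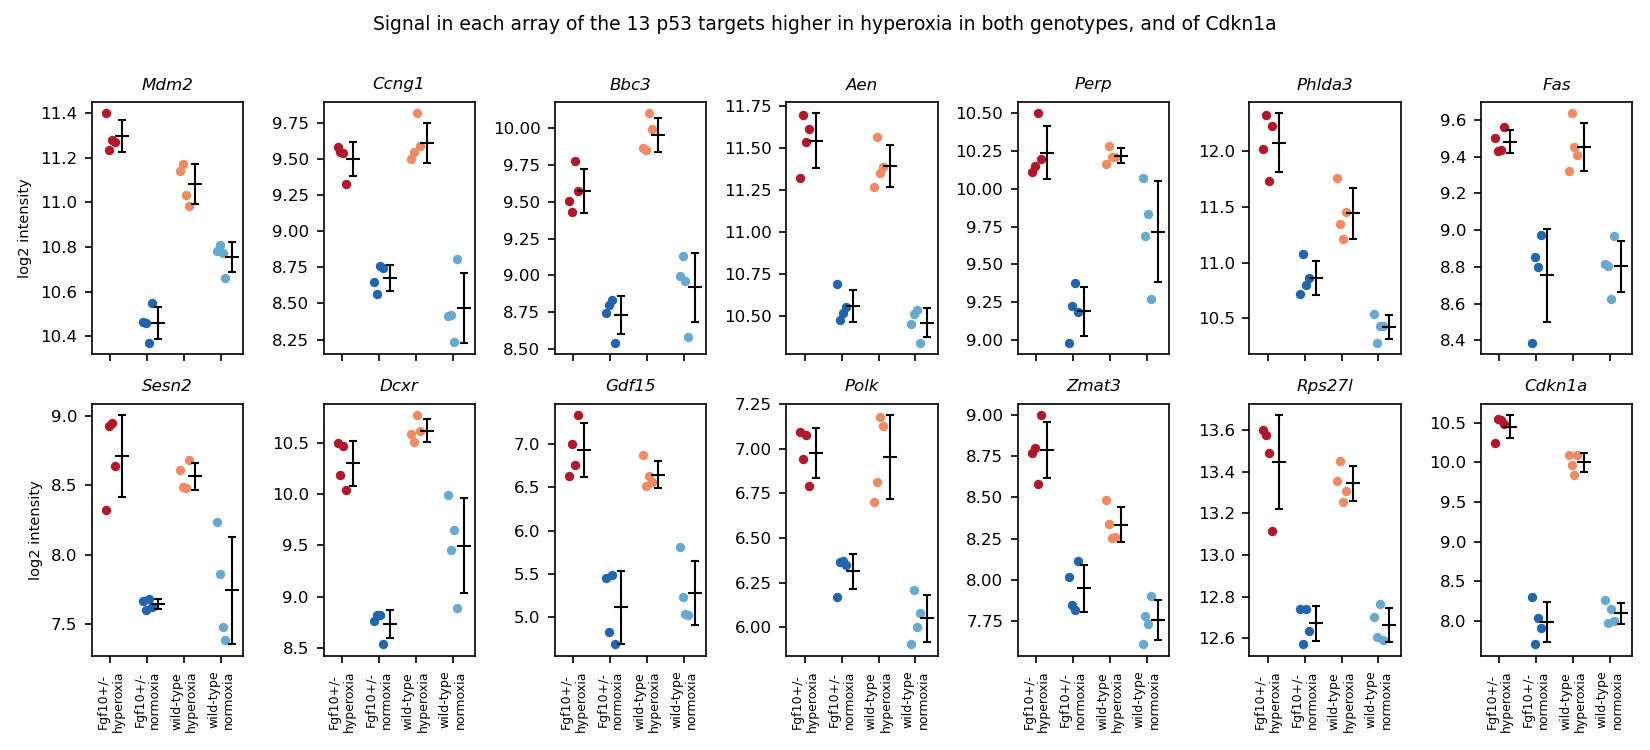
Log2 intensity of the 13 p53 pathway genes that were higher in hyperoxia in both genotypes, and of Cdkn1a, in each array; points are arrays, grouped from left to right as Fgf10+/- hyperoxia, Fgf10+/- normoxia, wild-type hyperoxia and wild-type normoxia, and bars are the group mean and SD (n = 4). In every panel the hyperoxia points lie above the normoxia points of the same genotype, from Mdm2 with 10.98 to 11.17 against 10.66 to 10.81 in wild type to Gdf15 with 6.64 to 7.33 against 4.69 to 5.49 in Fgf10+/-.

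The promoters of these genes were searched for the sequence that p53 binds. A half-site was taken as 10 bases, namely 3 purines, C, 2 bases that are each A or T, G and 3 pyrimidines, which reads the same on both strands. Each RefSeq promoter on GRCm38.p6 covers 250 bases before and 50 bases after a gene's start. Either 1 perfect half-site or a pair of half-sites with at most 3 mismatches and at most 13 bases between them was present in 14 of the 37 promoters of 27 of the genes (37.838%), against 12.621% of all 32851 promoters. Of the 13 genes higher in hyperoxia in both genotypes, 11 had a promoter entry and 6 held such a match. Among the other 19 genes tested, 13 had an entry and 5 held one. The 27 genes also include Trp53, Bax and Fdxr, which were not analysed on the arrays, and Trp53 and Bax each held a match. The overlapping Aen promoters share the same site, which is counted for each promoter. Most of the genes were listed because p53 is known to switch them on, so a higher share is partly built into the list and is no test. The shares describe letters in these windows only, and known p53 sites often lie elsewhere, such as in first introns.

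A matching promoter of each of the 6 genes higher in both genotypes is shown, so that the matches can be read beside the responses. Cdkn1a and Gtse1 follow, of which Gtse1 did not pass the test. Capitals mark the matched half-site or pair. Where a promoter held several pairs, only the 1 with the fewest mismatches is marked.
Mdm2, chr10:117710905-117710974, minus strand: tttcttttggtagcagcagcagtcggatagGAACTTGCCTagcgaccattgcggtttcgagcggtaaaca
Ccng1, chr11:40755432-40755501, minus strand: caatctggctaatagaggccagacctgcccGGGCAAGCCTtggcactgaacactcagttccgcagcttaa
Polk, chr13:96519379-96519437, minus strand: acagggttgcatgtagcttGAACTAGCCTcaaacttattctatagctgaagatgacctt
Bbc3, chr7:16309456-16309535, plus strand: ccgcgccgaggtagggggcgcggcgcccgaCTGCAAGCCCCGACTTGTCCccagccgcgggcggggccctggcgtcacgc
Aen, chr7:78895907-78895986, plus strand: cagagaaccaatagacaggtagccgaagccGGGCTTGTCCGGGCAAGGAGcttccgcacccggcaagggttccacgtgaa
Rps27l, chr9:66946266-66946345, plus strand: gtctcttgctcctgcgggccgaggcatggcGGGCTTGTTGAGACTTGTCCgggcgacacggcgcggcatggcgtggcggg
Cdkn1a, chr17:29090876-29090967, plus strand: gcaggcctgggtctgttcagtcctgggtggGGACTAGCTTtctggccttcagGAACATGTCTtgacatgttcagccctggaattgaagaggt
Gtse1, chr15:85859915-85859994, plus strand: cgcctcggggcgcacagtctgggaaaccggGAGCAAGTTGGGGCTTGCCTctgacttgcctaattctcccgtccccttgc
Mdm2, Ccng1 and Polk each hold 1 perfect half-site with no partner in range. Rps27l holds an adjoining pair with 1 mismatch, and Aen and Bbc3 adjoining pairs with 3. The Cdkn1a promoter shown holds 2 perfect half-sites 12 bases apart. The later of them is followed directly by an unmarked half-site with 1 mismatch, so an adjoining pair is also present there. Among all promoters, 24 (0.073%) hold a perfect pair at any spacing of at most 13 bases. Cdkn1a, Gtse1, Polk, Bbc3 and Rps27l also have promoter entries that hold no match. Gtse1 holds an adjoining pair with 1 mismatch, like Rps27l.

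Among the regulators of p53, Mdm2 was higher in hyperoxia in both genotypes. Its signal was 11.40, 11.24, 11.28 and 11.27 in Fgf10+/- hyperoxia, against 10.47, 10.46, 10.37 and 10.55 in Fgf10+/- normoxia. In wild type it was 11.14, 11.17, 11.03 and 10.98 in hyperoxia, against 10.78, 10.81, 10.77 and 10.66 in normoxia. Neither pair of groups overlapped, and the wild-type hyperoxia arrays lay between the Fgf10+/- hyperoxia arrays and both normoxia groups. The difference was 0.84 in Fgf10+/- lungs (SE 0.08, 1.79-fold, adjusted p = 1.02e-05) and 0.33 in wild-type lungs (SE 0.08, 1.26-fold, adjusted p = 0.00957).

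Mdm4, a relative of Mdm2 that blocks the transactivating part of p53, did not pass in either genotype. Its values were 6.04, 6.61, 8.20 and 6.85 in Fgf10+/- hyperoxia, against 7.74, 7.95, 7.72 and 8.18 in Fgf10+/- normoxia. A single array, Fgf10+/- hyperoxia replicate 3, lay above all the normoxia arrays while the other 3 lay below them. The difference was -0.97 (95% interval -1.71 to -0.24, adjusted p = 0.0541), and without that array it was -1.39 (adjusted p = 0.000936). With all arrays it passed under 3 alternatives, a filter at the 50th percentile (-0.97, adjusted p = 0.0353), the mean of the gene's features (-0.96, adjusted p = 0.0256) and a common 75th percentile (-1.004, adjusted p = 0.0477), and a dimmer second feature gave -0.96 (SE 0.34, adjusted p = 0.0624). Wild-type arrays read 7.28, 7.98, 7.71 and 7.74 in hyperoxia, against 7.42, 7.23, 6.74 and 7.45 in normoxia, and these groups overlapped. The wild-type difference was 0.47 (SE 0.34, adjusted p = 0.396), and the second feature gave -0.76 there (SE 0.34, adjusted p = 0.153).

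Trp73, a p53 family member that mice need to form multiciliated cells, gave unlike answers from its 3 features. The brightest, used for the gene, differed by -0.26 in Fgf10+/- lungs (SE 0.15, adjusted p = 0.258) and by 0.02 in wild-type lungs (SE 0.15, adjusted p = 0.952). The second read 5.74, 5.04, 5.50 and 5.27 in Fgf10+/- hyperoxia, against 4.77, 3.97, 4.62 and 4.25 in Fgf10+/- normoxia. In wild type the same feature read 5.91, 5.76, 6.02 and 5.29 in hyperoxia, against 4.32, 4.08, 4.70 and 5.09 in normoxia. Neither pair of groups overlapped on that feature. It rose by 0.98 (SE 0.24, adjusted p = 0.00988 over all named features) in Fgf10+/- lungs and by 1.20 (SE 0.24, adjusted p = 0.00371) in wild-type lungs. The third feature was dim, with 9 of 16 arrays above their 25th percentile of about 3.69 and 3 of the 4 Fgf10+/- normoxia arrays below it, so no difference is given for it. Which transcripts each feature reads is not stated. Beside Trp73, 9 tested of 10 listed genes of ciliated cells averaged 8.56 to 9.11 in Fgf10+/- hyperoxia, against 7.79 to 8.22 in Fgf10+/- normoxia, and 9.03 to 9.32 in wild-type hyperoxia, against 8.06 to 8.69 in wild-type normoxia. Of these 9, 6 were higher in Fgf10+/- hyperoxia, where 13% of all genes were, and 4 in wild-type hyperoxia, where 10.3% were. Their part in the Trp73 signal was not tested.

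**Figure D2:**
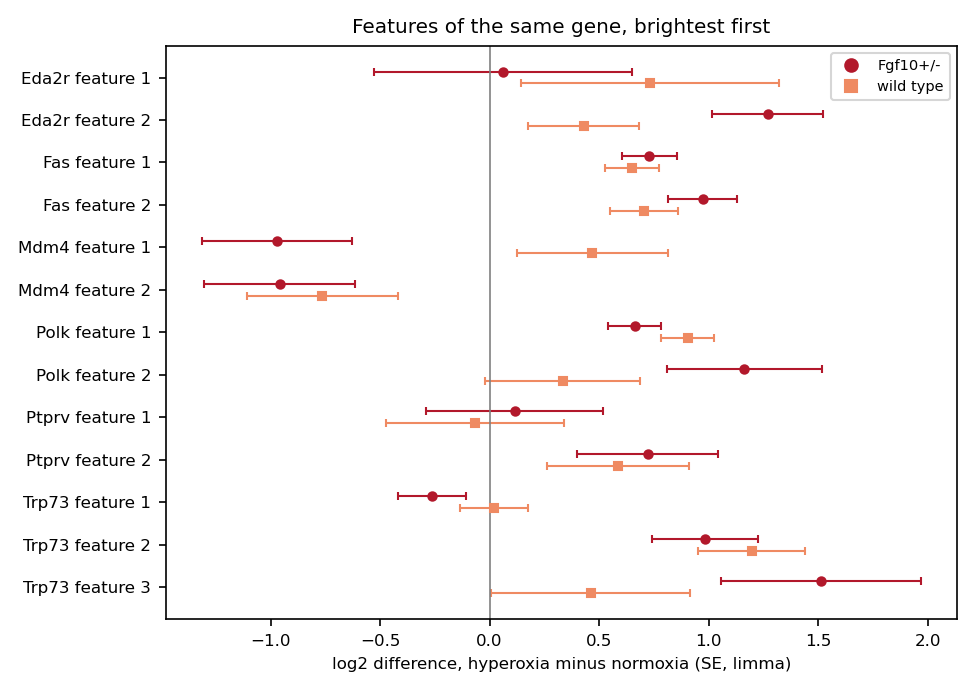
Log2 difference, hyperoxia minus normoxia, of each feature of the 6 genes Eda2r, Fas, Mdm4, Polk, Ptprv and Trp73, brightest feature first; circles are Fgf10+/-, squares wild type, and bars the SE of the limma fit. Both Fas features lie above 0 in both genotypes, while the first Trp73 feature lies near 0 and the second at 0.98 and 1.20. The dimmest Eda2r and Trp73 features lay under the 25th percentile in most normoxia arrays, so their positions are not read as differences.

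Of 7 genes that arrest or pace the cell cycle, 1 rose in both genotypes and 1 fell in Fgf10+/- lungs. Among all genes, 13% were higher and 10.7% lower in Fgf10+/- hyperoxia, and 10.3% were higher in wild-type hyperoxia. Counts this near those shares are not read as a result about the 7. Ccng1, cyclin G1, which helps to activate Mdm2, read 9.59, 9.55, 9.54 and 9.33 in Fgf10+/- hyperoxia, against 8.65, 8.57, 8.76 and 8.75 in Fgf10+/- normoxia. Its wild-type values were 9.50, 9.55, 9.82 and 9.59 in hyperoxia, against 8.42, 8.42, 8.24 and 8.81 in normoxia. The hyperoxia arrays of both genotypes lay in 1 range, well above all normoxia arrays. It rose by 0.82 in Fgf10+/- lungs (SE 0.12, 1.77-fold, adjusted p = 0.000227) and by 1.14 in wild-type lungs (SE 0.12, 2.21-fold, adjusted p = 3.31e-05).

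Plk2, a polo-like kinase, moved the other way in Fgf10+/- lungs. It read 8.11, 7.81, 7.85 and 7.74 in Fgf10+/- hyperoxia, against 8.17, 8.34, 8.42 and 8.48 in Fgf10+/- normoxia, groups that are separated by a narrow gap. The difference was -0.47 (SE 0.13, adjusted p = 0.0179), and it no longer passed without Fgf10+/- normoxia replicate 4 (-0.43, adjusted p = 0.054). In wild-type lungs Plk2 differed by -0.26 (SE 0.13, adjusted p = 0.195).

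The other 5 cell cycle genes did not pass in either genotype. Btg2, an antiproliferative protein, differed by 0.24 in Fgf10+/- lungs and by -0.07 in wild-type lungs (SE 0.14 each). Gadd45a, a growth arrest and DNA damage protein, differed by -0.49 in Fgf10+/- lungs (SE 0.20, adjusted p = 0.0915) and by -0.39 in wild-type lungs (SE 0.20, adjusted p = 0.201). Plk3, another polo-like kinase, differed by 0.82 in Fgf10+/- lungs (SE 0.32, adjusted p = 0.0809) and by 0.46 in wild-type lungs (SE 0.32, adjusted p = 0.372), with normoxia values spread from 5.96 to 7.23 in Fgf10+/- and from 5.64 to 7.22 in wild type. Gtse1, a microtubule-associated protein that is made in G2 and restrains p53, read 3.71, 4.15, 4.59 and 3.99 in Fgf10+/- hyperoxia, against 3.90, 4.61, 4.75 and 4.33 in Fgf10+/- normoxia. Its wild-type values were 2.97, 3.66, 3.83 and 4.06 in hyperoxia, against 4.20, 4.11, 3.61 and 4.31 in normoxia. The groups overlapped in both genotypes. All 4 group means, from 3.63 in wild-type hyperoxia to 4.40 in Fgf10+/- normoxia, lie under the array median of 4.50, and the differences of -0.29 in Fgf10+/- lungs (adjusted p = 0.486) and -0.43 in wild-type lungs (adjusted p = 0.29) did not pass (SE 0.26 each). Ptprv, a receptor-type phosphatase, lay as low, with group means from 3.77 to 3.90.

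Of 7 genes that act in apoptosis through mitochondria or beside that route, 5 rose in Fgf10+/- lungs and 4 of them also in wild-type lungs. The shares of all genes that were higher in these comparisons were 13% and 10.3%. Bbc3, which encodes the BH3-only protein PUMA, read 9.51, 9.43, 9.78 and 9.57 in Fgf10+/- hyperoxia, against 8.74, 8.80, 8.84 and 8.55 in Fgf10+/- normoxia. Wild-type lungs read 9.86, 9.85, 10.10 and 9.99 in hyperoxia, against 8.998, 9.13, 8.96 and 8.59 in normoxia. The groups were apart in both genotypes, and the gene rose by 0.84 in Fgf10+/- lungs (SE 0.12, 1.79-fold, adjusted p = 0.000234) and by 1.03 in wild-type lungs (SE 0.12, 2.05-fold, adjusted p = 8.3e-05).

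Aen, a nuclease that cuts DNA in apoptotic cells, rose in both genotypes. Fgf10+/- arrays read 11.32, 11.70, 11.54 and 11.61 in hyperoxia, against 10.69, 10.47, 10.52 and 10.55 in normoxia. Wild-type arrays read 11.27, 11.57, 11.35 and 11.39 in hyperoxia, against 10.45, 10.51, 10.54 and 10.34 in normoxia. The lowest hyperoxia array read 11.27 and the highest normoxia array 10.69. The rise was 0.98 in Fgf10+/- lungs (SE 0.10, adjusted p = 1.71e-05) and 0.93 in wild-type lungs (SE 0.10, adjusted p = 4.03e-05), and a second Aen feature gave 0.90 and 0.79 (SE 0.13 each).

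Phlda3, which competes with the kinase Akt for membrane lipids and so restrains its survival signal, had the largest difference of this set in Fgf10+/- lungs. It read 12.02, 12.32, 11.73 and 12.23 in Fgf10+/- hyperoxia, against 10.72, 11.08, 10.80 and 10.86 in Fgf10+/- normoxia. Wild-type values were 11.76, 11.34, 11.21 and 11.45 in hyperoxia, against 10.54, 10.28, 10.43 and 10.44 in normoxia. The groups were well separated within each genotype. It rose by 1.21 in Fgf10+/- lungs (SE 0.14, 2.32-fold, adjusted p = 4.81e-05) and by 1.02 in wild-type lungs (SE 0.14, 2.03-fold, adjusted p = 0.000254).

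Perp, a membrane protein of desmosomes that p53 induces in apoptosis, read 10.11, 10.15, 10.50 and 10.20 in Fgf10+/- hyperoxia, against 8.98, 9.22, 9.38 and 9.18 in Fgf10+/- normoxia. Its wild-type values were 10.16, 10.28, 10.21 and 10.21 in hyperoxia, against 10.07, 9.68, 9.83 and 9.27 in normoxia. The hyperoxia arrays of both genotypes were alike, while the normoxia arrays of wild type were spread widely up to the edge of the hyperoxia range. The rise of 1.05 in Fgf10+/- lungs (SE 0.15, 2.07-fold, adjusted p = 0.000183) exceeded the spread. The rise of 0.50 in wild-type lungs (SE 0.15, adjusted p = 0.0285) was lost without wild-type normoxia replicate 4, where it was 0.36 (adjusted p = 0.0764), and also when any 1 of the 4 wild-type hyperoxia arrays or wild-type normoxia replicate 2 was left out (0.48 to 0.52, adjusted p from 0.0507 to 0.0704).

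Pmaip1, which encodes the BH3-only protein NOXA, read 6.54, 5.94, 6.09 and 6.46 in Fgf10+/- hyperoxia, against 5.21, 5.40, 5.51 and 5.96 in Fgf10+/- normoxia. The groups overlapped slightly, since the highest normoxia array, at 5.958, lay just above the lowest hyperoxia array, at 5.943. The rise of 0.74 passed (SE 0.18, 1.67-fold, adjusted p = 0.00924). In wild-type lungs the means were 5.68 ± 0.14 in hyperoxia and 5.54 ± 0.29 in normoxia (SD, n = 4 each), a difference of 0.15 (SE 0.18, adjusted p = 0.657).

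Neither Apaf1, the scaffold of the apoptosome, nor Ei24, a membrane protein of the endoplasmic reticulum, passed the test, and both had negative differences. Apaf1 differed by -0.52 in Fgf10+/- lungs (SE 0.20, adjusted p = 0.0815) and by -0.15 in wild-type lungs (SE 0.20, adjusted p = 0.676). Ei24 read 7.28, 7.70, 7.93 and 7.48 in Fgf10+/- hyperoxia, against 7.98, 7.97, 8.05 and 8.03 in Fgf10+/- normoxia. All 4 hyperoxia arrays lay below all 4 normoxia arrays, and the difference of -0.41 had an adjusted p of 0.0551 (SE 0.15). In wild type Ei24 differed by -0.34 (SE 0.15, adjusted p = 0.13).

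**Figure D3:**
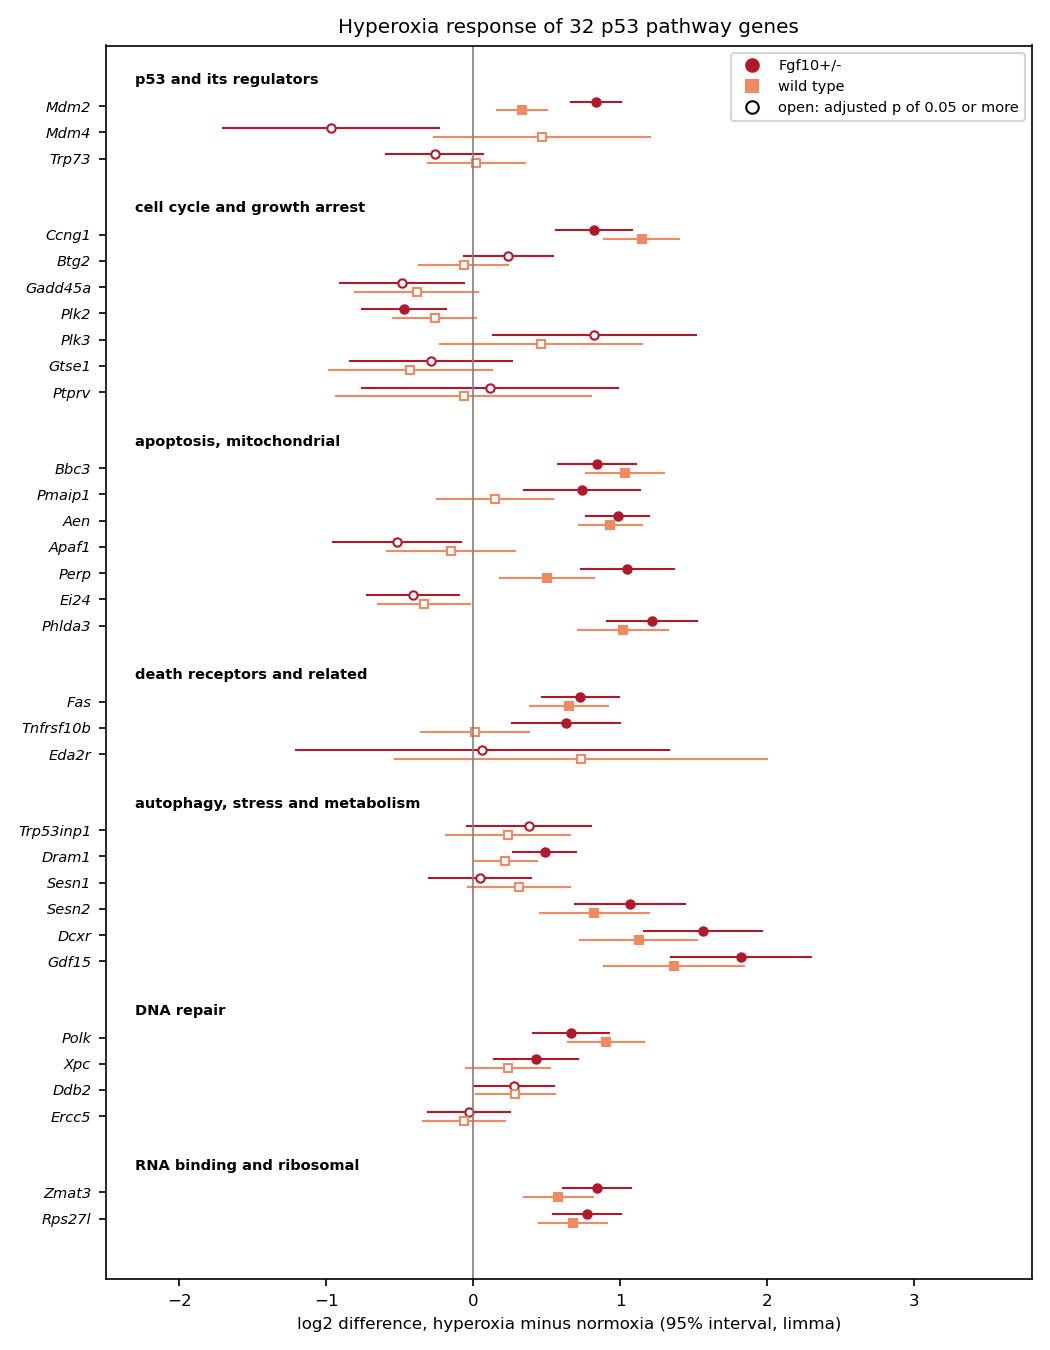
Log2 difference, hyperoxia minus normoxia, of the 32 genes ordered by role; circles are Fgf10+/-, squares wild type, bars the 95% interval of the limma fit, and open symbols have an adjusted p of 0.05 or more. Filled symbols lie to the right of 0 except Plk2 in Fgf10+/- at -0.47, and Gdf15 lies farthest to the right in both genotypes (1.82 in Fgf10+/- and 1.37 in wild type).

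Among 3 receptors of the tumour necrosis factor family, namely the death receptors Fas and Tnfrsf10b and the related Eda2r, Fas rose in both genotypes. It read 9.50, 9.43, 9.44 and 9.56 in Fgf10+/- hyperoxia, against 8.39, 8.85, 8.80 and 8.98 in Fgf10+/- normoxia. Wild-type values were 9.32, 9.64, 9.45 and 9.41 in hyperoxia, against 8.82, 8.80, 8.62 and 8.97 in normoxia. The hyperoxia ranges of both genotypes lay above both normoxia ranges. Fas rose by 0.73 in Fgf10+/- lungs (SE 0.12, 1.66-fold, adjusted p = 0.000651) and by 0.65 in wild-type lungs (SE 0.12, 1.57-fold, adjusted p = 0.002). A second Fas feature rose by 0.97 and 0.71 (SE 0.16 each), again in both.

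Tnfrsf10b, the mouse death receptor for the ligand TRAIL, read 7.43, 7.60, 7.30 and 7.64 in Fgf10+/- hyperoxia, against 7.09, 6.68, 7.05 and 6.65 in Fgf10+/- normoxia. These groups did not overlap, and the gene rose by 0.63 (SE 0.17, 1.54-fold, adjusted p = 0.0156), which no longer passed without Fgf10+/- normoxia replicate 4 (0.56, adjusted p = 0.0507). Wild-type lungs averaged 7.12 ± 0.21 in hyperoxia and 7.11 ± 0.34 in normoxia (SD, n = 4 each), and the difference of 0.01 was far from passing (SE 0.17, adjusted p = 0.977). Eda2r, the receptor for ectodysplasin A2, lay below the array median with single arrays scattered from 0.65 to 4.26. Its brighter feature did not pass in either genotype. A dimmer one exceeded the 25th percentile of about 3.69 in 6 of 16 arrays, namely all 4 of Fgf10+/- hyperoxia and 2 of wild-type hyperoxia, and in no normoxia array. It passed the filter through the hyperoxia groups alone, so no difference is given for it.

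Of 6 genes of stress, autophagy and metabolism, 4 rose in Fgf10+/- lungs and 3 of them also in wild-type lungs. Among all genes, 13% and 10.3% were higher in the same comparisons. Gdf15, a secreted stress cytokine of the TGF-beta family, read 6.64, 7.003, 6.76 and 7.33 in Fgf10+/- hyperoxia, against 5.46, 4.83, 5.49 and 4.69 in Fgf10+/- normoxia. Wild-type values were 6.87, 6.52, 6.63 and 6.56 in hyperoxia, against 5.81, 5.24, 5.05 and 5.02 in normoxia. No hyperoxia array came near the normoxia range in either genotype. Gdf15 rose by 1.82 in Fgf10+/- lungs (SE 0.22, 3.53-fold, adjusted p = 6.14e-05) and by 1.37 in wild-type lungs (SE 0.22, 2.58-fold, adjusted p = 0.000693).

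Dcxr, the reductase of dicarbonyls and L-xylulose, read 10.50, 10.19, 10.47 and 10.04 in Fgf10+/- hyperoxia, against 8.76, 8.82, 8.82 and 8.53 in Fgf10+/- normoxia. In wild type it read 10.59, 10.51, 10.77 and 10.61 in hyperoxia, against 9.99, 9.46, 9.65 and 8.89 in normoxia. The groups were apart in both genotypes, and the normoxia arrays of wild type were the most spread of the 4 groups. Dcxr rose by 1.56 in Fgf10+/- lungs (SE 0.19, 2.96-fold, adjusted p = 5.15e-05) and by 1.12 in wild-type lungs (SE 0.19, 2.18-fold, adjusted p = 0.000824). Without wild-type normoxia replicate 4 the wild-type rise was 0.92 (adjusted p = 0.0011).

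Sesn2, a sestrin that restrains the growth kinase complex mTORC1 under stress, read 8.32, 8.93, 8.95 and 8.64 in Fgf10+/- hyperoxia, against 7.67, 7.60, 7.68 and 7.62 in Fgf10+/- normoxia. Its wild-type values were 8.61, 8.49, 8.48 and 8.68 in hyperoxia, against 8.24, 7.86, 7.48 and 7.39 in normoxia. Neither pair of groups overlapped. It rose by 1.07 in Fgf10+/- lungs (SE 0.17, 2.10-fold, adjusted p = 0.000507) and by 0.82 in wild-type lungs (SE 0.17, 1.77-fold, adjusted p = 0.00416). Its relative Sesn1 did not pass, with differences of 0.04 in Fgf10+/- lungs and 0.31 in wild-type lungs (SE 0.16 each).

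Dram1, a lysosomal membrane protein that p53 uses to induce autophagy, read 9.99, 9.74, 9.84 and 9.90 in Fgf10+/- hyperoxia, against 9.44, 9.43, 9.36 and 9.31 in Fgf10+/- normoxia. Wild-type arrays read 10.34, 10.19, 10.52 and 10.33 in hyperoxia, against 10.23, 10.24, 10.12 and 9.91 in normoxia. The Fgf10+/- groups were apart, while the wild-type groups overlapped. Dram1 rose by 0.48 in Fgf10+/- lungs (SE 0.10, 1.40-fold, adjusted p = 0.00258), and in wild-type lungs the difference of 0.22 did not pass (SE 0.10, adjusted p = 0.15). Trp53inp1, a nuclear and autophagic stress protein, differed by 0.38 in Fgf10+/- lungs (SE 0.20, adjusted p = 0.194) and by 0.23 in wild-type lungs (SE 0.20, adjusted p = 0.476). A second feature, above the 25th percentile in all 16 arrays, rose by 0.54 in Fgf10+/- lungs (SE 0.15, adjusted p = 0.0164) and differed by 0.02 in wild-type lungs (SE 0.15, adjusted p = 0.946).

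Of the 4 DNA repair genes, Polk and Xpc rose in Fgf10+/- lungs, where 13% of all genes were higher. Only Polk also rose in wild-type lungs, where 10.3% were. Counts this small are not read as a result. Polk is a polymerase that copies past damaged bases, and it read 7.09, 6.94, 7.08 and 6.79 in Fgf10+/- hyperoxia, against 6.17, 6.37, 6.37 and 6.35 in Fgf10+/- normoxia. In wild type it read 6.70, 6.81, 7.18 and 7.12 in hyperoxia, against 5.91, 6.21, 6.003 and 6.08 in normoxia. The hyperoxia and normoxia arrays were fully apart in both. It rose by 0.66 in Fgf10+/- lungs (SE 0.12, 1.58-fold, adjusted p = 0.00113) and by 0.90 in wild-type lungs (SE 0.12, 1.87-fold, adjusted p = 0.000173). A dimmer second feature rose by 1.16 in Fgf10+/- lungs (SE 0.35, adjusted p = 0.0298) and did not pass in wild type (0.33, SE 0.35, adjusted p = 0.593), and 2 of its 4 Fgf10+/- normoxia arrays lay under their 25th percentile.

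The other repair genes act in nucleotide excision repair. Xpc, which recognises distorted DNA, read 8.60, 8.47, 8.90 and 8.50 in Fgf10+/- hyperoxia, against 8.30, 8.24, 8.24 and 7.97 in Fgf10+/- normoxia. The groups did not overlap and the rise of 0.43 passed (SE 0.13, adjusted p = 0.0305), but not when Fgf10+/- hyperoxia replicate 1 or 3 or Fgf10+/- normoxia replicate 2 or 4 was left out (0.33 to 0.44, adjusted p from 0.0512 to 0.0967). The wild-type difference was 0.24 (SE 0.13, adjusted p = 0.251). Ddb2, a damage sensor for ultraviolet lesions, differed by 0.28 in Fgf10+/- lungs (adjusted p = 0.135) and by 0.29 in wild-type lungs (adjusted p = 0.137), with an SE of 0.13 each. Ercc5, an endonuclease that cuts beside the lesion, differed by -0.03 and -0.06 (SE 0.13 each).

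Both remaining genes rose in both genotypes, where 13% of all genes were higher in Fgf10+/- hyperoxia and 10.3% in wild-type hyperoxia. Zmat3, an RNA-binding zinc finger protein, read 8.77, 8.80, 8.58 and 8.998 in Fgf10+/- hyperoxia, against 8.01, 7.84, 7.81 and 8.11 in Fgf10+/- normoxia. The wild-type arrays read 8.48, 8.34, 8.25 and 8.26 in hyperoxia, against 7.61, 7.78, 7.73 and 7.90 in normoxia. Within each genotype the groups were separated. It rose by 0.84 in Fgf10+/- lungs (SE 0.11, 1.79-fold, adjusted p = 9.81e-05) and by 0.58 in wild-type lungs (SE 0.11, 1.49-fold, adjusted p = 0.00195).

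Rps27l, a paralogue of a small-subunit ribosomal protein, read 13.60, 13.58, 13.49 and 13.12 in Fgf10+/- hyperoxia, against 12.74, 12.57, 12.74 and 12.64 in Fgf10+/- normoxia. Its wild-type values were 13.36, 13.45, 13.26 and 13.31 in hyperoxia, against 12.70, 12.61, 12.76 and 12.59 in normoxia. The normoxia arrays of both genotypes shared 1 narrow range below all hyperoxia arrays. Rps27l rose by 0.77 in Fgf10+/- lungs (SE 0.11, 1.71-fold, adjusted p = 0.000155) and by 0.68 in wild-type lungs (SE 0.11, 1.60-fold, adjusted p = 0.000579).

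Other genes of the pathway were read from a separate list. Of 21 further p53 targets tested, 9 were higher and 0 lower in Fgf10+/- hyperoxia (median difference 0.25), where 13% of all genes were higher. In wild-type hyperoxia 5 were higher and 0 lower (median 0.10), where 10.3% of all genes were higher. Cdkn1a, which inhibits cyclin-dependent kinases, read 10.24, 10.55, 10.53 and 10.48 in Fgf10+/- hyperoxia, against 8.30, 7.70, 8.04 and 7.91 in Fgf10+/- normoxia. Wild-type lungs read 10.09, 9.97, 9.84 and 10.09 in hyperoxia, against 8.26, 7.98, 8.15 and 7.998 in normoxia. The hyperoxia and normoxia arrays were far apart in both genotypes, with a rise of 2.46 in Fgf10+/- lungs (SE 0.13, adjusted p = 2.62e-07) and of 1.90 in wild-type lungs (SE 0.13, adjusted p = 1.67e-06). The epoxide hydrolase Ephx1 rose by 1.89 in Fgf10+/- lungs and by 1.42 in wild-type lungs (SE 0.12 each), and Tigar, which diverts glucose from glycolysis, by 1.16 and 0.82 (SE 0.15 each). The thiamine transporter Slc19a2 rose by 0.98 and 0.51 (SE 0.11 each).

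Of 22 genes that act on p53 from upstream, 2 were higher and 6 lower in Fgf10+/- hyperoxia (median -0.12), where 13% of all genes were higher and 10.7% lower. In wild-type hyperoxia 0 were higher and 3 lower (median -0.02), where 10.3% of all genes were higher and 8.75% lower. Counts this small are not read as a result about the list. Chek2, the checkpoint kinase that stabilises p53, fell by 1.11 in Fgf10+/- lungs (SE 0.25, adjusted p = 0.00448) and by 0.74 in wild-type lungs (SE 0.25, adjusted p = 0.0489). Dyrk2, a kinase that phosphorylates p53, had differences of -0.97 and -0.66 (SE 0.13 each), and the ubiquitin ligase gene Rchy1 of -0.44 and -0.55 (SE 0.12 each), which all passed. Usp7, which removes ubiquitin from p53 and Mdm2, rose by 0.32 in Fgf10+/- lungs (SE 0.10, adjusted p = 0.0234), and its wild-type difference was 0.27 (SE 0.10, adjusted p = 0.0674). Atm, the kinase that senses double-strand breaks, fell by 1.10 in Fgf10+/- lungs (SE 0.25, adjusted p = 0.00495), and its wild-type difference was -0.32 (SE 0.25, adjusted p = 0.433). Trp53bp2, a p53-binding protein that promotes apoptosis, fell by 0.70 in Fgf10+/- lungs (SE 0.15, adjusted p = 0.00293) and had a wild-type difference of -0.20 (SE 0.15, adjusted p = 0.389).

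Proliferation genes moved with the hyperoxia groups. All 12 tested of 14 listed were lower in hyperoxia in both genotypes, with a median of -1.50 in Fgf10+/- lungs and -2.03 in wild-type lungs. Of all genes, 10.7% were lower in Fgf10+/- hyperoxia and 8.75% in wild-type hyperoxia. The difference in Fgf10+/- and in wild-type lungs was -2.06 and -2.40 for the spindle checkpoint kinase Bub1b (SE 0.17 each) and -1.61 and -2.45 for cyclin B2, Ccnb2 (SE 0.18 each). It was -1.46 and -1.32 for the mitotic kinase Cdk1 (SE 0.16 each) and -1.96 and -2.81 for the centromeric histone Cenpa (SE 0.22 each). Birc5, which acts in chromosome segregation, had -1.58 and -2.41 (SE 0.22 each). Mean signal of the 12 was 7.98 to 8.85 in Fgf10+/- hyperoxia, against 10.002 to 10.11 in Fgf10+/- normoxia, and 6.87 to 7.55 in wild-type hyperoxia, against 9.16 to 9.68 in wild-type normoxia. Of the 10 defining genes of lung epithelium, 5 were higher in Fgf10+/- hyperoxia (median 0.37), where 13% of all genes were higher. In wild-type hyperoxia 2 of the 10 were higher, where 10.3% of all genes were. The wild-type median was -0.02, with 4 of the 10 differences positive. Macrophage genes averaged 8.69 to 9.10 in Fgf10+/- hyperoxia, against 8.01 to 9.07 in Fgf10+/- normoxia. They averaged 8.57 to 8.82 in wild-type hyperoxia, against 8.63 to 9.06 in wild-type normoxia, so the ranges of this mean overlapped in both genotypes. The mean combines opposite changes: of 8 genes, 1 was higher and 2 lower in hyperoxia in each genotype. Their differences ran from -1.42 to 2.03 in Fgf10+/- lungs and from -1.58 to 1.75 in wild-type lungs. Counts this small are not read as a result. The part of these cell populations in the p53 target signals was not tested.

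**Figure D4:**
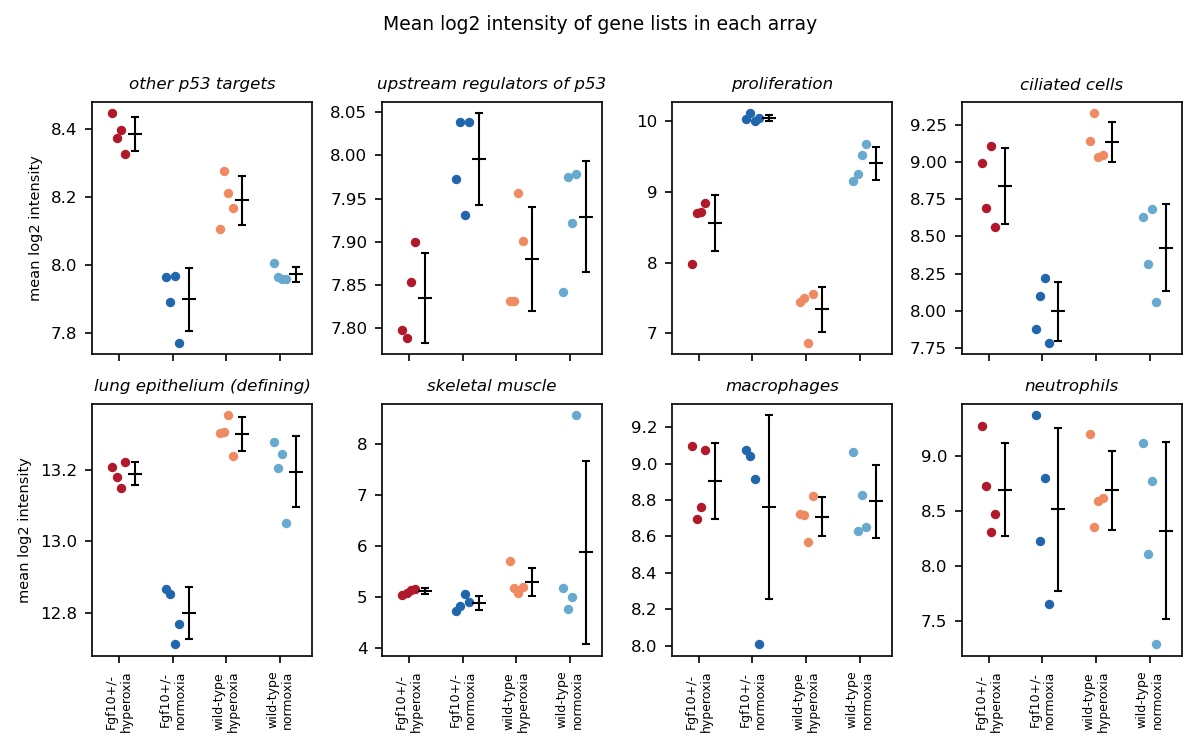
Mean log2 intensity in each array of other p53 targets, upstream regulators of p53, proliferation genes and markers of ciliated cells, lung epithelium, skeletal muscle, macrophages and neutrophils; points are arrays, ordered as Fgf10+/- hyperoxia, Fgf10+/- normoxia, wild-type hyperoxia and wild-type normoxia, with the group mean and SD (n = 4). The other p53 targets lie at 8.32 to 8.45 against 7.77 to 7.97 in Fgf10+/- and at 8.11 to 8.28 against 7.96 to 8.01 in wild type, and 1 wild-type normoxia array stands out in skeletal muscle genes at 8.57.

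Between the genotypes, few of the 32 genes differed. In hyperoxia 0 were higher and 0 lower in Fgf10+/- than in wild-type lungs by limma, where 0.293% of all genes were higher and 0.119% lower (0.412% in either direction). At an unadjusted p under 0.05, 8 of the 32 and 1818 of the 20166 genes differed. In normoxia 0 were higher and 1, Dram1, was lower, where 0.114% of all genes were higher and 0.605% lower (0.719% in either direction). At an unadjusted p under 0.05, 7 of the 32 and 2593 of all genes differed. The groups did not overlap for 6 of the 32 genes in either comparison, against 5.99% of all genes in hyperoxia and 7.53% in normoxia.

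Dram1, whose values per array are given above, averaged 9.38 ± 0.06 in Fgf10+/- normoxia and 10.13 ± 0.15 in wild-type normoxia (SD, n = 4 each). Every Fgf10+/- array lay below every wild-type array. The difference was -0.74 (SE 0.10, adjusted p = 0.00406), and without wild-type normoxia replicate 4 it was -0.81 (adjusted p = 0.0028). When only these 2 groups were fitted its adjusted p was 0.0846, in a fit that called none of the 20166 genes. In hyperoxia the Fgf10+/- arrays, at 9.87 ± 0.10, again all lay below the wild-type arrays, at 10.34 ± 0.13, and the difference of -0.48 did not pass (SE 0.10, adjusted p = 0.0593).

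Dcxr and Perp had negative differences in normoxia that did not pass in the fit as reported. Dcxr averaged 8.74 ± 0.14 in Fgf10+/- normoxia and 9.50 ± 0.46 in wild-type normoxia (SD, n = 4 each), a difference of -0.76 (SE 0.19, adjusted p = 0.0829). Perp averaged 9.19 ± 0.16 and 9.71 ± 0.33 in the same groups, a difference of -0.52 (SE 0.15, adjusted p = 0.13). In both genes the lowest wild-type array was replicate 4, the one with skeletal muscle signal. Without it Dcxr differed by -0.96 (adjusted p = 0.01) and Perp by -0.67 (adjusted p = 0.0232), and both passed. With all arrays kept, Dcxr passed with the 50th percentile filter (adjusted p = 0.0479) and with trend and robust options (adjusted p = 0.0197). It also passed with array weights (adjusted p = 0.0305) and the replicate block (adjusted p = 0.0447). Perp passed with trend and robust options (adjusted p = 0.0287). Btg2 differed by -0.54 in normoxia (SE 0.14, adjusted p = 0.108), and by -0.63 without that array (adjusted p = 0.0502). With all arrays kept, Btg2 passed with trend and robust options (adjusted p = 0.0225) and with array weights (adjusted p = 0.0449).

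Phlda3 and Zmat3 had positive differences in hyperoxia that did not pass. Phlda3 averaged 12.08 ± 0.26 in Fgf10+/- hyperoxia and 11.44 ± 0.23 in wild-type hyperoxia (SD, n = 4 each), a difference of 0.64 (SE 0.14, adjusted p = 0.0905) with 1 array on each side in the overlap. Zmat3 averaged 8.79 ± 0.17 and 8.33 ± 0.11 in the same groups, which did not overlap, and differed by 0.45 (SE 0.11, adjusted p = 0.12). Pmaip1 differed by 0.58 (SE 0.18, adjusted p = 0.307) and Bbc3 by -0.38 (SE 0.12, adjusted p = 0.311), and neither passed.

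Markers of other cell states differed between the same groups. In hyperoxia 9 of 12 proliferation genes were higher in Fgf10+/- than in wild-type lungs (median 1.33), where 0.293% of all genes were higher. In normoxia 1 of 12, Cdk1, was higher (median 0.61), where 0.114% of all genes were higher. Defining genes of lung epithelium averaged 12.71 to 12.87 in Fgf10+/- normoxia, against 13.05 to 13.28 in wild-type normoxia. Of these 10 genes, 3 were lower and 0 higher, where 0.605% of all genes were lower. The part of these cell states in the Dram1, Dcxr and Perp differences was not tested.

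**Figure D5:**
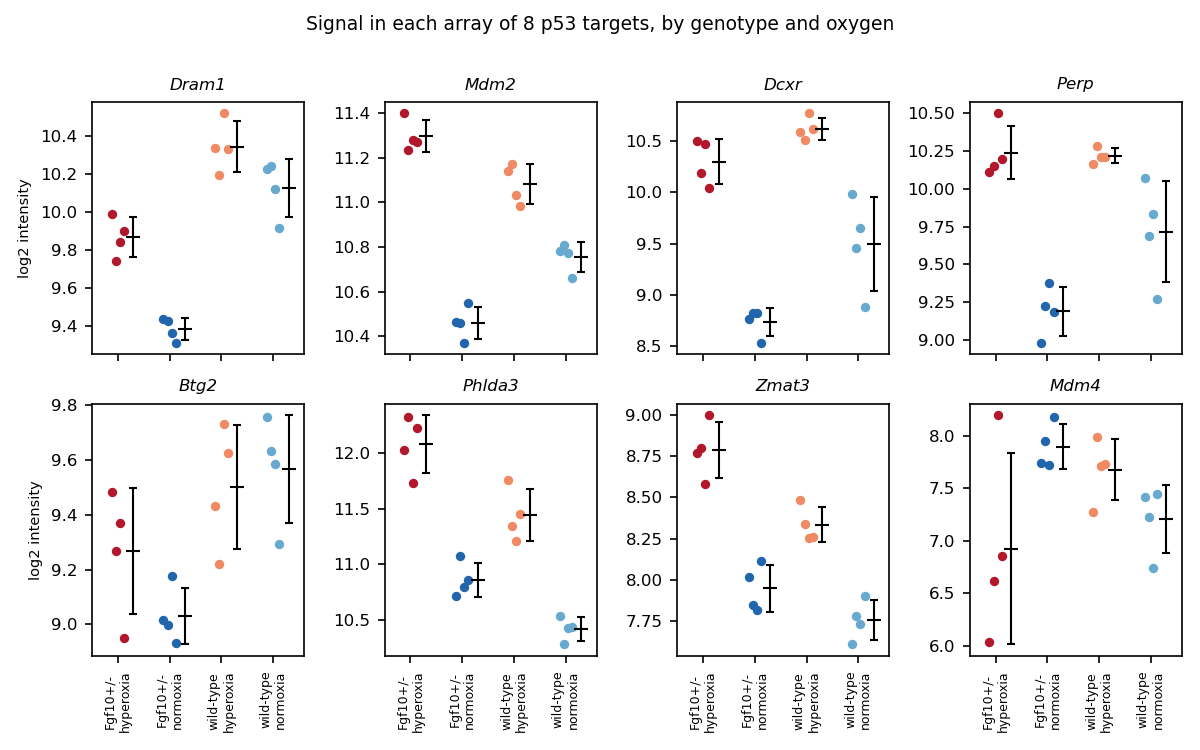
Log2 intensity of 8 genes, Dram1, Mdm2, Dcxr, Perp, Btg2, Phlda3, Zmat3 and Mdm4, in each array; points are arrays, ordered as Fgf10+/- hyperoxia, Fgf10+/- normoxia, wild-type hyperoxia and wild-type normoxia, with the group mean and SD (n = 4). Dram1 averages 9.87 in Fgf10+/- against 10.34 in wild-type hyperoxia and 9.38 in Fgf10+/- against 10.13 in wild-type normoxia, and Mdm4 in Fgf10+/- hyperoxia spans 6.04 to 8.20.

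Whether the response to oxygen differed by genotype was tested as an interaction, the difference in Fgf10+/- lungs minus that in wild-type lungs. By limma 0 of the 32 genes and 0 of all 20166 passed (0% called). At an unadjusted p under 0.05 there were 5 of the 32, namely Mdm2, Mdm4, Perp, Tnfrsf10b and Pmaip1, and 1334 of all genes. Mdm2 had the smallest p of the 32, with an interaction of 0.51 (SE 0.11, 95% interval 0.27 to 0.75, unadjusted p = 0.000467, adjusted p = 0.501). Its Fgf10+/- arrays lay above wild type in hyperoxia and below it in normoxia, without overlap on either side. The interaction was -1.44 for Mdm4 (SE 0.48), 0.54 for Perp (SE 0.21), 0.62 for Tnfrsf10b (SE 0.24) and 0.59 for Pmaip1 (SE 0.26), with adjusted p from 0.682 to 0.741. For Dram1 it was 0.27 (SE 0.14, adjusted p = 0.779) and for Xpc 0.19 (SE 0.19, adjusted p = 0.89). Dram1, Pmaip1, Tnfrsf10b, Xpc and Plk2 passed in Fgf10+/- lungs and not in wild-type lungs, and these tests do not show that their responses differ between the genotypes.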

How the data were processed

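The RNA was amplified and carried a single dye, Cy3, per the labels' protocols. The deposited values are log2 intensities, 1 per array feature. How the authors corrected background and normalized is not given in the sources used. The 25th, 50th and 75th percentiles were nearly the same in all 16 arrays, so the values were taken as already normalized between arrays and were used as they stand. Of 62976 features, 31511 named no gene. Names came from the platform annotation. RefSeq accessions updated them for 29036 features, a current symbol matched for 2075 and a unique synonym for 349, and 5 names stayed as annotated. The table held 33 missing values, and features with one were left out. Features had to exceed their array's 25th percentile in 4 or more of the 16 arrays, and the brightest such feature stood for its gene.

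Differences were tested with limma 3.58.1 in R 4.3.3, with 1 mean per group over all 16 arrays (12 residual and 2.129 prior degrees of freedom), two-sided, with Benjamini-Hochberg adjustment over 20166 genes and calls at an adjusted p under 0.05. Single features were adjusted over all kept named features, so the same feature can have a slightly different adjusted p there. The script was tested on simulated data. The number of arrays limits the precision, and no array was dropped. By sex-linked genes, 1 of 4 arrays in Fgf10+/- hyperoxia, 2 in Fgf10+/- normoxia, 2 in wild-type hyperoxia and 1 in wild-type normoxia were male, and a sex covariate was among the alternatives. Same-numbered replicates of different groups did not deviate together (r from -0.03 to 0.09 over 16 pairs), so the fit was unpaired.

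The members and the gene lists were chosen with earlier results of these data known. All members are named, with every array's value for those past the threshold in both hyperoxia comparisons and for Mdm2, Mdm4 and Gtse1. Array values of other members were chosen after they were seen. Besides Cdkn1a, the 4 genes with the smallest p in each hyperoxia comparison were named from each pathway list. Promoter letters are RefSeq's, on GRCm38.p6.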

Additional observations from a re-analysis of the deposited data

Results flagged for a closer look

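In 5 of the 128 pairs of a gene and a group, 1 array lay farther from the other 3 than Dixon's critical value of 0.829 for the ratio of gap to range allows. Chance flags about 1 in 20 such groups. Plk3 was lowest in wild-type normoxia replicate 4, at 5.64 against 7.05 to 7.22 in the other arrays of its group. Sesn1 was highest in the same array, at 9.20 against 8.76 to 8.82. That array also carries the skeletal muscle signal described above. Without it the wild-type hyperoxia difference was 0.09 (adjusted p = 0.851) for Plk3 and 0.41 (adjusted p = 0.114) for Sesn1, and neither passed. Trp73 was lowest in wild-type hyperoxia replicate 1, at 5.29 against 5.83 to 5.92. Polk was lowest in Fgf10+/- normoxia replicate 1, at 6.17 against 6.35 to 6.37. Ddb2 was lowest in wild-type hyperoxia replicate 3, at 7.60 against 7.78 to 7.81.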

How the results depend on the processing

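Of 872 values recomputed for named genes, 845 kept their direction and their side of the threshold, 15 lost a call, 10 gained one and 2 changed sign. Over the alternatives that kept all arrays, the number of the 32 genes higher in hyperoxia was 17 to 19 in Fgf10+/- lungs and 13 to 14 in wild-type lungs. It was 16 and 12 when only the groups compared were fitted, and 16 to 18 and 12 to 13 with 1 array left out. The number lower in Fgf10+/- hyperoxia, 1 with the fit as reported, was 3 with a filter at the 50th percentile, 2 with the mean of a gene's features, 3 with a common 75th percentile, 2 after quantile normalization, 2 with trend and robust options, and 0 to 3 with 1 array left out. Ei24, Mdm4, Apaf1 and Gadd45a were gained and Plk2 was lost among these. In Fgf10+/- against wild type in hyperoxia, Phlda3 was higher (1 gene) with the 50th percentile filter and with trend and robust options, and Dram1 was lower (1 gene) with both of these and with array weights. In normoxia the number lower, 1 as reported, was 2 with the 50th percentile filter, 5 with trend and robust options, 3 with array weights, 0 with only the groups compared, 2 with the replicate block, and 1 to 3 with 1 array left out.

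With the replicate number as a block, Plk3 was gained in Fgf10+/- hyperoxia (0.82, adjusted p = 0.0413) and Dcxr was gained as lower in Fgf10+/- normoxia. In 5 of 16 pairs both arrays correlated best with their own number, and 0 pairs had a correlation over 0.1. The mean of all features turned 2 signs: Mdm4 in wild-type hyperoxia became -0.15 (adjusted p = 0.796) and Cdkn1a in Fgf10+/- against wild type in normoxia became 0.046 (adjusted p = 0.888). The same setting gained Trp73 in Fgf10+/- lungs (0.74, adjusted p = 0.000935) and in wild-type lungs (0.56, adjusted p = 0.00845), and Trp53inp1 in Fgf10+/- lungs (0.46, adjusted p = 0.034). The Trp73 mean includes its dimmest feature. With the mean of features Cdkn1a also passed as higher in Fgf10+/- than in wild-type hyperoxia (0.50, adjusted p = 0.0286). The fit as reported gave 0.45 there (adjusted p = 0.214), which did not pass. Xpc in Fgf10+/- lungs and Perp in wild-type lungs lost their calls when only the groups compared were fitted (adjusted p = 0.0663 and 0.0762). Apart from the mean of features and the filters, which change what is read or tested, the cause of these changes was not tested. Genes near or under the array median, such as Gtse1, Ptprv and Eda2r, have the least signal over background and wide intervals.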
